A study of Rattus norvegicus with 3 samples.

Results

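Kidney RNA of 3 rat strains was examined for 8 genes of fatty acid oxidation, lipid desaturation, bile acid synthesis and lipid sensing: *Cyp8b1*, *Acox2*, *Ppara*, *Pdk4*, *Scd1*, *Cpt1a*, *Ehhadh* and *Acadm*. Each was found as 1 record by the gene name column of the deposited tables, so 8 of 33194 records were taken. All 8 had a mean of at least 1 FPKM (fragments scaled to feature length and to mapped fragments), as did 17902 records in all, and these 17902 are called measured below. The genes were picked because of their levels in these same libraries, so their differences are a description and carry no test.

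Dahl S is the salt-sensitive Dahl rat, in which salt raises blood pressure. The other strains were the spontaneously hypertensive rat (SHR), and the Dahl salt-resistant rat (Dahl R), the selected counterpart of Dahl S. Dahl S kidneys were taken at 53 days of age, SHR kidneys at 55 days and Dahl R kidneys at 54 days, per the labels. All animals were weaned at 30 days and then ate a diet of 0.3% salt, so no library was made under salt loading. There was 1 library per strain, made from total RNA after removal of ribosomal RNA. How many animals went into a library is unstated, so strain, age and animal cannot be told apart.

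Values above 0 were listed for between 26086 and 26156 records per library. Read totals were not used here, but the deposited limits of low records put the depth of SHR at 1.68 times (interquartile range 1.63 to 1.72) and that of Dahl R at 1.33 times (1.32 to 1.34) that of Dahl S. The limits printed after each value are the authors' confidence limits in FPKM, of unstated level. They describe 1 library and hold no variation between animals. The upper limit of records at 5 FPKM or more lay above the value by a median of 31.6% in Dahl S, 30.01% in SHR and 30.6% in Dahl R. Kidney markers were present: all 20 proximal tubule genes of the list were above 1 FPKM in each library.

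Fatty acids are burned in mitochondria after carnitine palmitoyltransferase 1 has passed them into the mitochondrial carnitine shuttle, and peroxisomes shorten very long, branched and bile-acid side chains first. The receptor PPAR alpha senses fatty acids and switches on genes of both routes, among them *Cpt1a*, *Ehhadh* and *Acadm*, and also *Pdk4*. The proximal tubule of the kidney depends on fatty acid oxidation for its fuel and expresses PPAR alpha, whereas bile acid synthesis is known mainly from liver.

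Of the 8 genes, 7 had their highest value in SHR, and *Ehhadh* was highest in Dahl R. *Cyp8b1*, *Acox2* and *Scd1* were at least 2-fold higher in SHR than in either Dahl strain, with limits apart each time. *Pdk4* was 2-fold apart in SHR against Dahl R alone, and *Ppara* in Dahl S against SHR alone. The oxidation enzymes *Cpt1a*, *Ehhadh* and *Acadm* stayed under 2-fold in all 3 pairs, with overlapping limits. Here 2-fold means a log2 ratio of at least 1 in size after adding 1 to each FPKM, which understates the differences of low records.

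**Figure D1:**
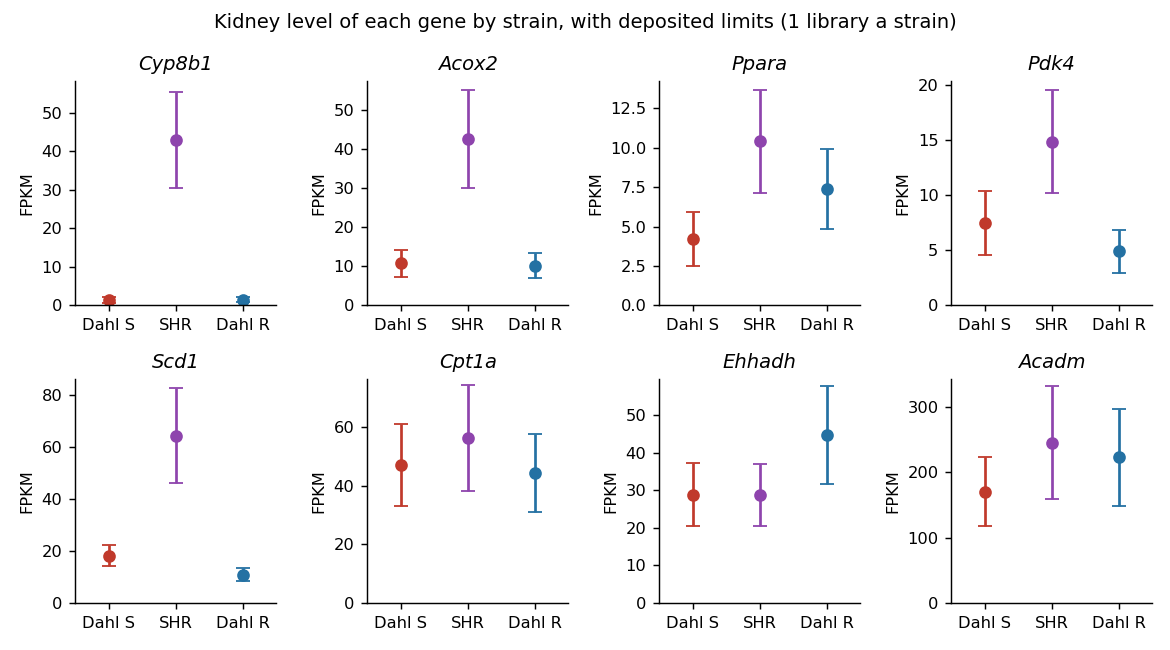
Level of each of the 8 genes in FPKM (vertical axis, from 0) in the Dahl S, SHR and Dahl R libraries, as points with the deposited lower and upper limits as bars. *Cyp8b1*, *Acox2* and *Scd1* in SHR lie above the limits of both Dahl strains, while the bars of *Cpt1a*, *Ehhadh* and *Acadm* overlap throughout.

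In Dahl S against Dahl R, the contrast of salt sensitivity with salt resistance, 0 of the 8 genes were 2-fold apart, where 4.04% of measured records were. Their log2 ratios lay between -0.69 for *Ppara* and 0.70 for *Scd1*, with a median of 0.04, equal at this rounding to the 0.04 of all measured records. In Dahl S against SHR, 4 of the 8 were 2-fold lower in Dahl S and 0 higher, where 5.06% of measured records were called in either direction and 2.34% were lower. All 4 had limits apart, as 3.92% of measured records did in this pair, and 2.6% were both 2-fold and apart. The median log2 ratio of the 8 was -1.02, beside 0.00 for all measured records. In SHR against Dahl R, 4 of the 8 were 2-fold higher in SHR and 0 lower, where 4.4% of measured records were called in either direction and 2.52% were higher. All 4 had limits apart, as 3.87% of measured records did in this pair, and 2.59% were both 2-fold and apart. The median was 0.94, beside 0.04 for all measured records. The pairs share libraries, so the comparisons with SHR and with Dahl R are not independent of one another, and nothing is read from these shares because the genes were chosen on them.

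**Figure D2:**
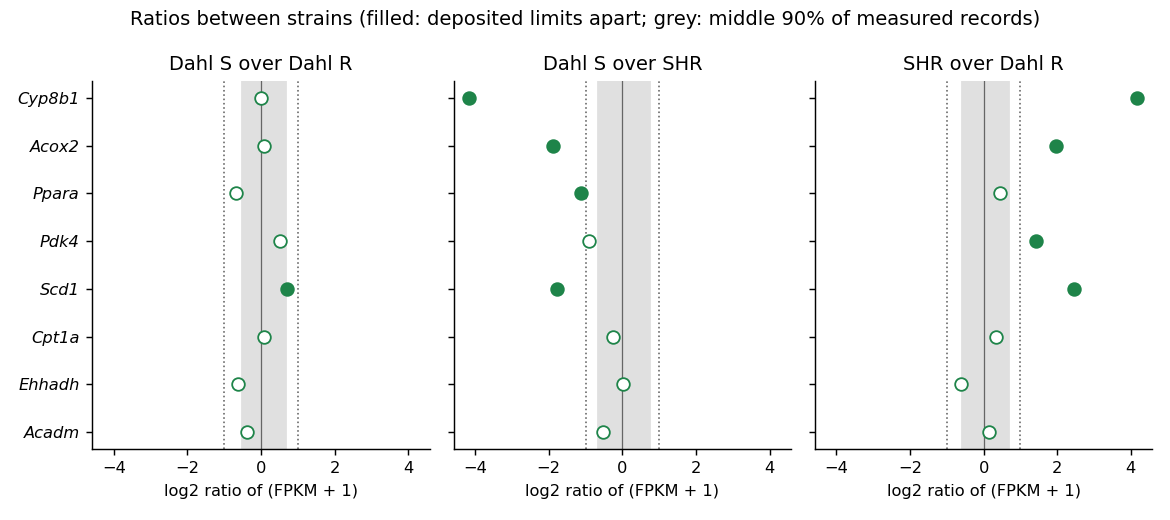
Log2 ratio of FPKM plus 1 (horizontal axis) for each gene in Dahl S over Dahl R, Dahl S over SHR and SHR over Dahl R. Filled points have deposited limits apart, dotted lines mark 2-fold, and the grey band holds the middle 90% of the 17902 measured records; *Cyp8b1* lies furthest out, at -4.16 and 4.17.

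The 250 bases before the start of the 4 genes that were 2-fold higher in SHR than in Dahl R are shown because these records stood highest in the same library. They are RefSeq sequence of the GRCr8 build, 5′ to 3′ on the gene's strand, with capitals for CCAAT or its reverse complement ATTGG:
Cyp8b1, chr8:130457593-130457842, minus strand: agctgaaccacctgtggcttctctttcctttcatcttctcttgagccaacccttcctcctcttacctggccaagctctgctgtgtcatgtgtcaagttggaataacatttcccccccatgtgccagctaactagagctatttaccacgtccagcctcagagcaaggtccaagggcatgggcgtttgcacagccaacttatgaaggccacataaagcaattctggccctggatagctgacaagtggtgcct
Acox2, chr15:19090705-19090954, plus strand: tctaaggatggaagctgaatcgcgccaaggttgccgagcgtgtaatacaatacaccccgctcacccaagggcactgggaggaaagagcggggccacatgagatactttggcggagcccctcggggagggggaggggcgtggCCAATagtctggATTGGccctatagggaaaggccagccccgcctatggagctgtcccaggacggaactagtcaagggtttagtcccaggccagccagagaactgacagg
Pdk4, chr4:34568330-34568579, minus strand: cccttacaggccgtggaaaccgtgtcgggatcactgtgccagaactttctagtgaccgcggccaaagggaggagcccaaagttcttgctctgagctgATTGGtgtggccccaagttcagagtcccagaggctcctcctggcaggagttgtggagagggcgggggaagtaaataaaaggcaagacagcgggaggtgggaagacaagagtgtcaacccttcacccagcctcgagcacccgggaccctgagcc
Scd1 (Scd in RefSeq), chr1:253231732-253231981, minus strand: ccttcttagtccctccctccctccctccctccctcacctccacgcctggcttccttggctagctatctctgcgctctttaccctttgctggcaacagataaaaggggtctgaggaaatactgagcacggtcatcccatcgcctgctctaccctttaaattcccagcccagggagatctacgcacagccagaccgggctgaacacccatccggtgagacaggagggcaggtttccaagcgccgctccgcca

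Both strands of the 8 promoters were searched for AGGTCA (a core bound by PPAR and related receptors), the E-box CACGTG that reads alike on both strands, the D-box TTATGTAA bound by *Dbp*, the CCAAT box and the TATA box TATAAA. None of these letter runs contains another. Among the 33469 promoters of the table, 14.1% held the PPAR core, 5.59% the E-box, 0.828% the D-box, 34.02% the CCAAT box and 12.9% the TATA box. Of these letters the 8 promoters held CCAAT alone, in *Acox2* on both strands, and in *Pdk4* and *Ehhadh* on the reverse strand. In *Acox2* the matches begin 109 and 97 bases before the start, in *Pdk4* 153 bases and in *Ehhadh* 71 bases. The share of G and C over the 250 bases was 51.2% for *Cyp8b1*, which equals the median of the table, 60.0% for *Acox2*, 59.2% for *Pdk4* and 58.8% for *Scd1*. These matches describe letters and not sites in use.

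Among the genes of bile acid synthesis, *Cyp8b1* had the widest range of the 8 genes. It encodes the sterol 12-alpha-hydroxylase that sets the share of cholic acid among bile acids (ENSRNOG00000019481, chromosome 8, 127018908 to 127020878 in the positions of the files, of unstated build). Its level was 1.46 FPKM (limits 0.680 to 2.23) in Dahl S, 43.0 FPKM (30.5 to 55.5) in SHR and 1.45 FPKM (0.735 to 2.16) in Dahl R. SHR was thus high and both Dahl strains low and alike, within limits that overlap. The SHR value was 29.7 times that of Dahl R, and 14.1 to 75.6 times when the limits furthest from or closest to each other are taken. Among the 17902 measured records its log2 ratio of 4.17 ranked 2 from the top in SHR over Dahl R, and its -4.16 ranked 4 from the bottom in Dahl S over SHR. Within each library it stood above 6.46% of measured records in Dahl S, 85.9% in SHR and 8.84% in Dahl R.

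*Acox2* encodes the peroxisomal oxidase that shortens the side chain of bile acid intermediates and of branched fatty acids (ENSRNOG00000007378, chromosome 15, 18647103 to 18677855). It had 10.7 FPKM (7.23 to 14.3) in Dahl S, 42.6 FPKM (30.1 to 55.1) in SHR and 10.1 FPKM (6.91 to 13.3) in Dahl R. As for *Cyp8b1*, the Dahl strains lay together and SHR apart, at 4.22 times Dahl R (2.26 to 7.98 by the limits), a log2 ratio of 1.97. Its log2 ratio in Dahl S over SHR was -1.89. *Acox3*, another peroxisomal oxidase of branched chains, lay between 18.3 and 23.1 FPKM with overlapping limits.

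Of the other 13 genes listed for bile acid synthesis, 12 were matched and 8 measured. In SHR over Dahl R 0 of these 8 were 2-fold apart (median log2 ratio -0.09), where 4.4% of all measured records were. Limits were apart for 1 of these 8, as for 3.87% of all measured records. This was *Cyp39a1*, an entry that shares its locus with another record and was lowest in SHR. It had 1.56 FPKM (0.939 to 2.18) in Dahl S, 0.683 FPKM (0.382 to 0.983) in SHR and 2.02 FPKM (1.33 to 2.71) in Dahl R. SHR stood at 0.338 times Dahl R before the pseudocount, and the log2 ratio with it was -0.84. *Cyp7a1*, the rate-limiting enzyme of the classic pathway in liver, was listed at 0 in SHR and Dahl R and at 0.16 FPKM in Dahl S. *Cyp27a1*, the sterol 27-hydroxylase, had 9.66 FPKM (6.32 to 13.0) in Dahl S, 14.0 FPKM (9.77 to 18.2) in SHR and 9.44 FPKM (6.32 to 12.6) in Dahl R. *Akr1c14*, a 3-alpha-hydroxysteroid dehydrogenase that shares its locus with another record, was highest in Dahl S, with 6.07 FPKM (3.84 to 8.30) in Dahl S, 0.854 FPKM (0.413 to 1.3) in SHR and 0.922 FPKM (0.426 to 1.42) in Dahl R. Since *Cyp8b1* is known mainly from liver, hepatocyte markers were read beside it, and 6 of 9 were under 1 FPKM in every library, and *Alb* was at 0.12 FPKM in Dahl S, 0.41 FPKM in SHR and 0.55 FPKM in Dahl R. Their summed level was 114.5 FPKM in Dahl S, 78.7 FPKM in SHR and 92.9 FPKM in Dahl R, nearly all of it from *Tf*, *Cyp2e1* and *Fgb*. The part of liver RNA in the *Cyp8b1* level was not tested.

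The desaturase gene *Scd1* makes monounsaturated fatty acids and is abundant in fat tissue (ENSRNOG00000013552, chromosome 1, 249458699 to 249471514). It had 18.2 FPKM (14.3 to 22.2) in Dahl S, 64.2 FPKM (45.9 to 82.5) in SHR and 10.8 FPKM (8.36 to 13.3) in Dahl R. All 3 strains were apart by their limits, with SHR highest and Dahl R lowest. It was the 1 gene of the 8 with limits apart in Dahl S against Dahl R, where 2.3% of measured records had limits apart, at 1.68 times (1.07 to 2.65 by the limits). SHR stood at 5.93 times Dahl R (3.45 to 9.86), a log2 ratio of 2.46, and the log2 ratio of Dahl S over SHR was -1.76. *Scd1* has close copies, so reads can be shared between them. The record *Scd4* had 4.99 FPKM in Dahl S, 5.88 FPKM in SHR and 3.6 FPKM in Dahl R.

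Most adipocyte markers were, like *Scd1*, highest in SHR. Of 14 adipocyte markers, 11 were measured, and in SHR over Dahl R 8 of them were 2-fold higher with limits apart and 0 lower (median log2 ratio 1.45), where 2.52% of all measured records were 2-fold higher. Against SHR, Dahl S had 4 of the 11 at 2-fold lower levels (median log2 ratio -0.75), where 2.34% of all measured records were, and *Retn* alone had a log2 ratio above 0. Between Dahl S and Dahl R 0 of the 11 were 2-fold apart, where 4.04% of all measured records were. All 11 had a log2 ratio of Dahl S over Dahl R above 0 (median 0.52, beside 0.04 for all measured records). The sum over all 14 was 244 FPKM in Dahl S, 591 FPKM in SHR and 172 FPKM in Dahl R. *Lep*, *Dio2* and *Elovl3* were under 1 FPKM in every library, with *Lep* listed at 0 in Dahl S, and 2 of the 14, *Cpt1b* and *Elovl3*, also belong to the pathway lists. *Ucp1*, the uncoupling protein of brown fat, had 37.7 FPKM (26.2 to 49.2) in Dahl S, 155 FPKM (107 to 203) in SHR and 26.3 FPKM (18.2 to 34.4) in Dahl R. *Scd1* came to 48.3% of *Ucp1* in Dahl S, 41.4% in SHR and 41.1% in Dahl R. *Cyp8b1* came to 3.86% of *Ucp1* in Dahl S, 27.7% in SHR and 5.50% in Dahl R. Ratios of adipocyte markers to *Ucp1* were not all alike across strains either. In Dahl S, SHR and Dahl R, *Adipoq* came to 43.9%, 18.5% and 53.9% of *Ucp1*, *Cpt1b* to 40.2%, 16.6% and 35.4%, and *Fabp4* to 168%, 95.3% and 179%. *Lpl*, at 56.3%, 52.1% and 68.3%, and *Cidea*, at 38.1%, 28.6% and 32.6%, varied less. *Acox2* came to 28.5%, 27.5% and 38.4% of *Ucp1* in Dahl S, SHR and Dahl R, and *Pdk4* to 19.8%, 9.57% and 18.6% in the same order. In whole tissue, more cells of a type and more RNA per cell cannot be told apart, and the part of fat tissue in these levels was not tested.

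**Figure D3:**
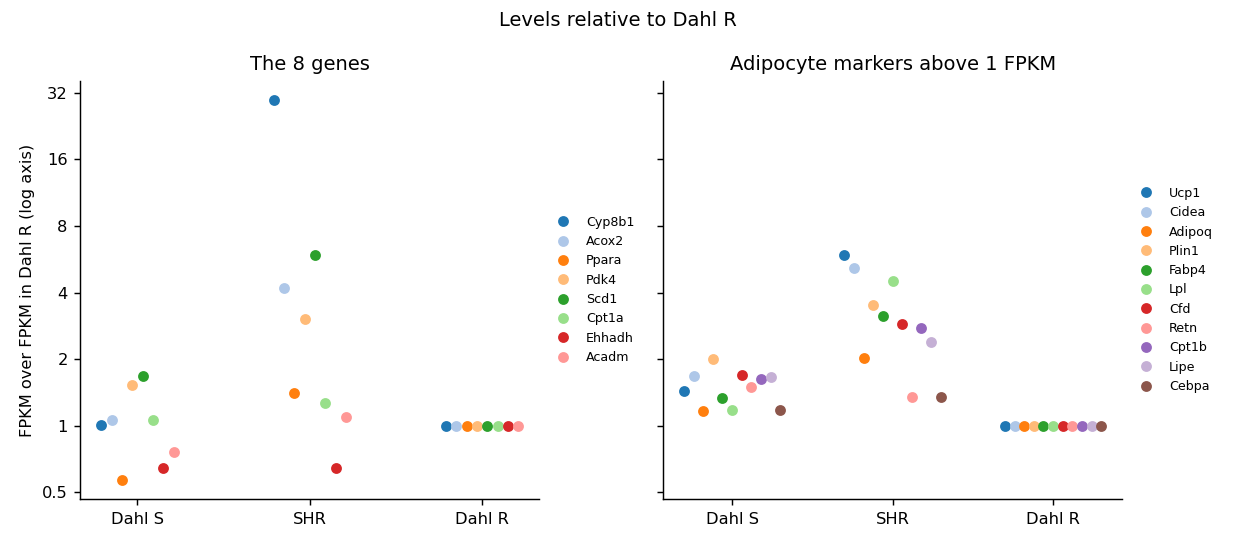
FPKM divided by the FPKM of Dahl R (vertical log axis) in the Dahl S, SHR and Dahl R libraries, for the 8 genes (left) and the 11 measured adipocyte markers (right), 1 point per gene and strain, Dahl R being 1 by construction. *Scd1* at 5.93 and *Ucp1* at 5.90 lie close together in SHR, and *Cyp8b1* at 29.7 lies above all the markers.

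Of the other 16 measured genes of fatty acid synthesis and desaturation, 1 was 2-fold higher and 1 lower in SHR over Dahl R (median log2 ratio -0.03). In this pair 4.4% of all measured records were called in either direction. Limits were apart for 5 of the 16, and for 3.87% of all measured records. *Thrsp*, a nuclear protein that promotes lipogenesis, was the higher one, at 71.8 FPKM (51.0 to 92.6) in Dahl S, 169 FPKM (116 to 222) in SHR and 50.0 FPKM (35.5 to 64.5) in Dahl R. *Elovl2*, which elongates polyunsaturated fatty acids, was the lower one, at 4.82 FPKM (3.12 to 6.51) in Dahl S, 2.79 FPKM (1.80 to 3.78) in SHR and 7.19 FPKM (4.92 to 9.46) in Dahl R. The other 3 with limits apart were higher in SHR by less than 2-fold. *Acaca*, the acetyl-CoA carboxylase of fatty acid synthesis, had 5.54 FPKM (4.06 to 7.02) in Dahl S, 9.01 FPKM (6.96 to 11.1) in SHR and 5.07 FPKM (3.87 to 6.28) in Dahl R. *Acacb*, the mitochondrial carboxylase whose product restrains carnitine palmitoyltransferase 1, had 13.8 FPKM (11.1 to 16.6) in Dahl S, 25.3 FPKM (20.8 to 29.8) in SHR and 17.4 FPKM (14.3 to 20.6) in Dahl R. *Dgat2*, which completes triglyceride synthesis, had 27.3 FPKM (19.2 to 35.3) in Dahl S, 51.1 FPKM (35.95 to 66.2) in SHR and 27.001 FPKM (19.2 to 34.8) in Dahl R. *Acacb* and *Dgat2* were also apart between Dahl S and SHR, so like *Scd1* they were highest in SHR with limits apart from both Dahl strains. In Dahl S over SHR 1 of the 16 was 2-fold lower, *Thrsp*, where 2.34% of all measured records were. In Dahl S over Dahl R 0 of the 16 were 2-fold apart, where 4.04% of all measured records were.

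*Ppara* encodes the fatty acid receptor PPAR alpha (ENSRNOG00000021463, chromosome 7, 123729774 to 123807090). It had 4.2 FPKM (2.49 to 5.91) in Dahl S, 10.4 FPKM (7.13 to 13.7) in SHR and 7.37 FPKM (4.83 to 9.92) in Dahl R. Dahl S was lowest and SHR highest, and Dahl R overlapped with both. Dahl S over SHR gave a log2 ratio of -1.13, 0.403 times (0.182 to 0.828 by the limits). The ratio no longer reached 2-fold with a pseudocount of 5, at -0.74. In Dahl S over Dahl R the log2 ratio was -0.69 and in SHR over Dahl R 0.45. The sister receptor *Ppard* had its highest value in Dahl S, at 37.9 FPKM (26.8 to 48.9) in Dahl S, 22.6 FPKM (16.01 to 29.1) in SHR and 25.02 FPKM (17.7 to 32.4) in Dahl R. *Ppara* therefore came to 11.1% of *Ppard* in Dahl S, 46.1% in SHR and 29.5% in Dahl R. *Pparg*, the receptor of fat cells, lay between 3.50 and 3.84 FPKM.

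The clock-driven transcription factor *Dbp* had the same order of strains as *Ppara*, with 41.9 FPKM in Dahl S, 208 FPKM in SHR and 140.01 FPKM in Dahl R, and the 12 matched clock genes summed to 175 FPKM in Dahl S, 450.2 FPKM in SHR and 366 FPKM in Dahl R. Of these 12, 4 were 2-fold lower and 3 higher in Dahl S over SHR, where 5.06% of all measured records were called in either direction. The 3 higher ones had the reverse order of *Ppara*, highest in Dahl S and lowest in SHR. In Dahl S, SHR and Dahl R, *Nfil3* had 11.9, 3.03 and 3.75 FPKM, *Arntl* 12.5, 4.34 and 6.42 FPKM, and *Npas2* 8.13, 3.10 and 3.91 FPKM. The labels used here give no time of day, and the part of the clock in the *Ppara* level was not tested. Of all measured records 4.04% were 2-fold apart in Dahl S over Dahl R. The shares in Dahl S over SHR and in SHR over Dahl R were 5.06% and 4.4%. Of the other 25 measured receptors and partners, 0 were 2-fold apart in any pair. The most abundant were *Hnf4a*, a receptor of proximal tubule and liver cells, at 119 FPKM (93.6 to 143) in Dahl S, 132 FPKM (99.98 to 164) in SHR and 173 FPKM (135 to 211) in Dahl R, and the oxysterol receptor *Nr1h2*, between 80.2 and 91.0 FPKM. Their median log2 ratio was -0.09 in Dahl S over Dahl R, -0.02 in Dahl S over SHR and -0.02 in SHR over Dahl R.

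*Pdk4* encodes the kinase that switches off pyruvate dehydrogenase when fat is burned (ENSRNOG00000009565, chromosome 4, 30235296 to 30245298). It had 7.48 FPKM (4.58 to 10.4) in Dahl S, 14.9 FPKM (10.2 to 19.5) in SHR and 4.90 FPKM (2.95 to 6.85) in Dahl R. SHR was apart from Dahl R at 3.03 times (1.49 to 6.63 by the limits), a log2 ratio of 1.43. The limits of Dahl S overlapped with those of both others, and its log2 ratio was -0.90 over SHR and 0.52 over Dahl R. The other kinases had overlapping limits. *Pdk2*, the abundant form, had 223 FPKM in Dahl S, 198 FPKM in SHR and 233 FPKM in Dahl R, although 5 records share its locus. *Pdk1* lay between 6.61 and 8.20 FPKM and *Pdk3* between 12.0 and 16.9 FPKM, with overlapping limits. *Mpc1*, a subunit of the mitochondrial pyruvate carrier, had 207 FPKM (146 to 267) in Dahl S, 239 FPKM (166 to 313) in SHR and 201 FPKM (141 to 259.6) in Dahl R. Of the other 11 measured genes of the pyruvate dehydrogenase list, 0 were 2-fold apart in any pair. Among all measured records 4.04% were 2-fold apart in Dahl S over Dahl R. The shares in Dahl S over SHR and in SHR over Dahl R were 5.06% and 4.4%.

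**Figure D4:**
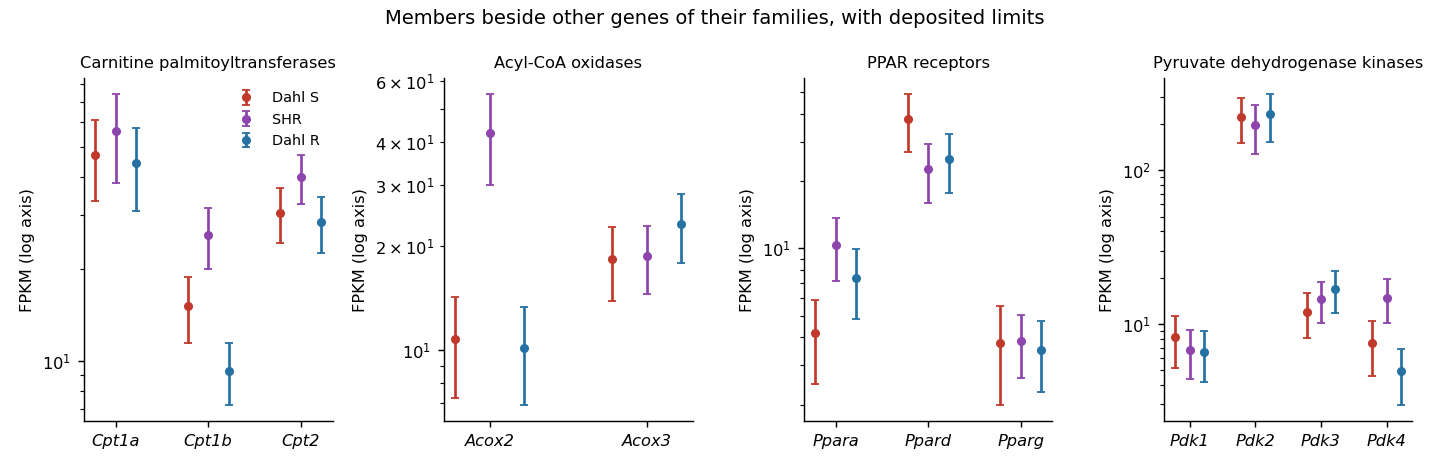
FPKM (vertical log axis) with deposited limits for 4 families, in the order Dahl S, SHR and Dahl R within each gene. *Acox2*, *Cpt1b* and *Pdk4* are highest in SHR, while *Acox3* and the more abundant *Pdk2* have overlapping limits in all 3 strains.

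The remaining 3 genes encode enzymes of oxidation itself. *Cpt1a*, the liver-type carnitine palmitoyltransferase that gates entry into mitochondria (ENSRNOG00000014254, chromosome 1, 205852746 to 205912969), had 47.2 FPKM (33.2 to 61.2) in Dahl S, 56.2 FPKM (38.1 to 74.3) in SHR and 44.3 FPKM (30.9 to 57.7) in Dahl R. Its highest value was 1.27 times its lowest, the narrowest range of the 8 genes. The muscle and brown fat form *Cpt1b* differed more, at 15.2 FPKM (11.50 to 18.8) in Dahl S, 25.8 FPKM (20.0 to 31.6) in SHR and 9.32 FPKM (7.18 to 11.45) in Dahl R. Its limits were apart between all 3 strains, though only just between Dahl S and Dahl R. *Cpt1b* came to 32.1% of *Cpt1a* in Dahl S, 45.8% in SHR and 21.0% in Dahl R, and it is 1 of the adipocyte markers above.

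*Acadm*, the medium-chain acyl-CoA dehydrogenase of the mitochondrial spiral (ENSRNOG00000009845, chromosome 2, 251866645 to 251890729), was the most abundant of the 8 genes. It had 170.4 FPKM (118 to 223) in Dahl S, 246 FPKM (159 to 333) in SHR and 223 FPKM (149 to 298) in Dahl R. It stood above 97.1% of measured records in Dahl S, 98.2% in SHR and 97.9% in Dahl R, and the limits of all 3 libraries overlapped. A small nucleolar record in its locus, *SNORA15*, was listed at 0 in each library.

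*Ehhadh*, the bifunctional enzyme of the peroxisomal spiral (ENSRNOG00000001770, chromosome 11, 81474172 to 81507660), was the 1 gene of the 8 with its highest value in Dahl R. It had 28.8 FPKM (20.497 to 37.2) in Dahl S, 28.7 FPKM (20.3 to 37.0) in SHR and 44.7 FPKM (31.6 to 57.8) in Dahl R. The log2 ratio was -0.61 in Dahl S over Dahl R and -0.62 in SHR over Dahl R, under 2-fold and with overlapping limits. A long non-coding record on the other strand of the locus had 0.155 FPKM in Dahl S, 0.391 FPKM in SHR and 0.273 FPKM in Dahl R. The sources do not state a use of strand, so reads of both records cannot be told apart.

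Median log2 ratios of the other genes of the oxidation pathways lay between -0.18 and 0.12. Of 25 other measured genes of mitochondrial beta-oxidation, 1 was 2-fold higher in SHR over Dahl R (*Cpt1b*) and 0 were lower, with a median log2 ratio of 0.12. In this pair 2.52% of all measured records were 2-fold higher. In Dahl S over SHR and in Dahl S over Dahl R 0 of the 25 were 2-fold apart, with medians of -0.18 and -0.04. Of all measured records 5.06% and 4.04% were 2-fold apart in these pairs. Of 20 other measured peroxisomal genes, 1 was 2-fold lower in Dahl S than in SHR, where 2.34% of all measured records were. This was *Pecr*, a reductase of chain elongation, at 107 FPKM (76.4 to 138) in Dahl S, 249 FPKM (167 to 331) in SHR and 147 FPKM (103 to 192) in Dahl R. The 20 had medians of -0.09 in Dahl S over Dahl R, -0.08 in Dahl S over SHR and -0.05 in SHR over Dahl R. Limits were apart between Dahl S and Dahl R for 1 of the 20, and for 2.3% of all measured records. This was *Hacl1*, at 21.4 FPKM (15.4 to 27.4) in Dahl S, 28.6 FPKM (21.5 to 35.7) in SHR and 39.2 FPKM (29.8 to 48.5) in Dahl R. Proximal tubule markers, for cells that burn much fat, summed to 8507 FPKM in Dahl S, 6982 FPKM in SHR and 9328 FPKM in Dahl R. All 20 had a log2 ratio below 0 in SHR over Dahl R (median -0.50, beside 0.04 for all measured records). In this pair 1 of the 20 was 2-fold lower and 2 had limits apart. The shares of all measured records were 4.4% for 2-fold in either direction and 3.87% for limits apart.

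Of 18 measured PPAR alpha targets other than the 8 genes, 3 were 2-fold higher in SHR over Dahl R and 0 lower (median log2 ratio 0.19). In this pair 2.52% of all measured records were 2-fold higher. *Ucp3*, a mitochondrial carrier of muscle and brown fat, had 1.98 FPKM (1.06 to 2.91) in Dahl S, 3.90 FPKM (2.5 to 5.29) in SHR and 0.436 FPKM (0.145 to 0.727) in Dahl R. It was also the 1 target 2-fold higher in Dahl S over Dahl R. *Angptl4*, an inhibitor of lipoprotein lipase, had 6.90 FPKM (4.31 to 9.49) in Dahl S, 8.02 FPKM (5.37 to 10.7) in SHR and 3.45 FPKM (2.05 to 4.86) in Dahl R. The third, *Txnip*, had overlapping limits at 154 FPKM (105 to 204) in Dahl S, 232 FPKM (138 to 325) in SHR and 109.6 FPKM (74.4 to 145) in Dahl R. In Dahl S over SHR 0 of the 18 were 2-fold apart (median 0.02), where 5.06% of all measured records were. A log2 ratio above 0 in Dahl S over Dahl R was found for 14 of the 18 (median 0.29), where the median of all measured records was 0.04. *Ppara* itself had a lower value in Dahl S than in Dahl R, with overlapping limits. The abundant fatty acid hydroxylase gene *Cyp4a2* had 604 FPKM in Dahl S, 378 FPKM in SHR and 557 FPKM in Dahl R, and copies of the Cyp4a family can share reads.

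Among the ketone body genes the transporter alone was 2-fold apart. Of all measured records 4.04% were 2-fold apart in Dahl S over Dahl R and 5.06% in Dahl S over SHR. *Slc16a1*, the monocarboxylate transporter that carries lactate and ketone bodies, had 16.5 FPKM (11.6 to 21.5) in Dahl S, 7.05 FPKM (4.85 to 9.24) in SHR and 6.30 FPKM (4.23 to 8.36) in Dahl R. It was 2-fold higher in Dahl S than in either other strain, and the other 6 genes of the list were under 2-fold in all 3 pairs. Haemoglobin genes, markers of red blood cells, which also express *Slc16a1*, were likewise highest in Dahl S. *Hbb* had 3089.7 FPKM in Dahl S, 711 FPKM in SHR and 1209 FPKM in Dahl R, with limits apart in all 3 pairs, although 4 records share its locus. The third measured gene of the red blood cell list, *Slc4a1*, was highest in SHR, with overlapping limits. Its reads in whole kidney need not come from red blood cells. The part of red blood cells in the *Slc16a1* level was not tested.

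Over all 8 pathway lists, 122 genes other than the chosen 8 were measured. In SHR over Dahl R 5 of them were 2-fold higher and 1 lower, which is 4.92%, beside 4.4% of all measured records. In Dahl S over SHR 2 were higher and 2 lower, which is 3.28% beside 5.06%. In Dahl S over Dahl R 3 were higher and 0 lower, which is 2.46% beside 4.04%. Among the 14183 measured protein-coding records, the closer comparison for these lists, 2.78% were called in SHR over Dahl R, 2.97% in Dahl S over SHR and 1.97% in Dahl S over Dahl R. Limits were apart for 7.38% of the 122 genes in SHR over Dahl R, 5.74% in Dahl S over SHR and 4.10% in Dahl S over Dahl R. The same held for 3.7%, 3.65% and 1.95% of the protein-coding records in these pairs, and for 3.87%, 3.92% and 2.3% of all measured records. No test was made of these differences.

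**Figure D5:**
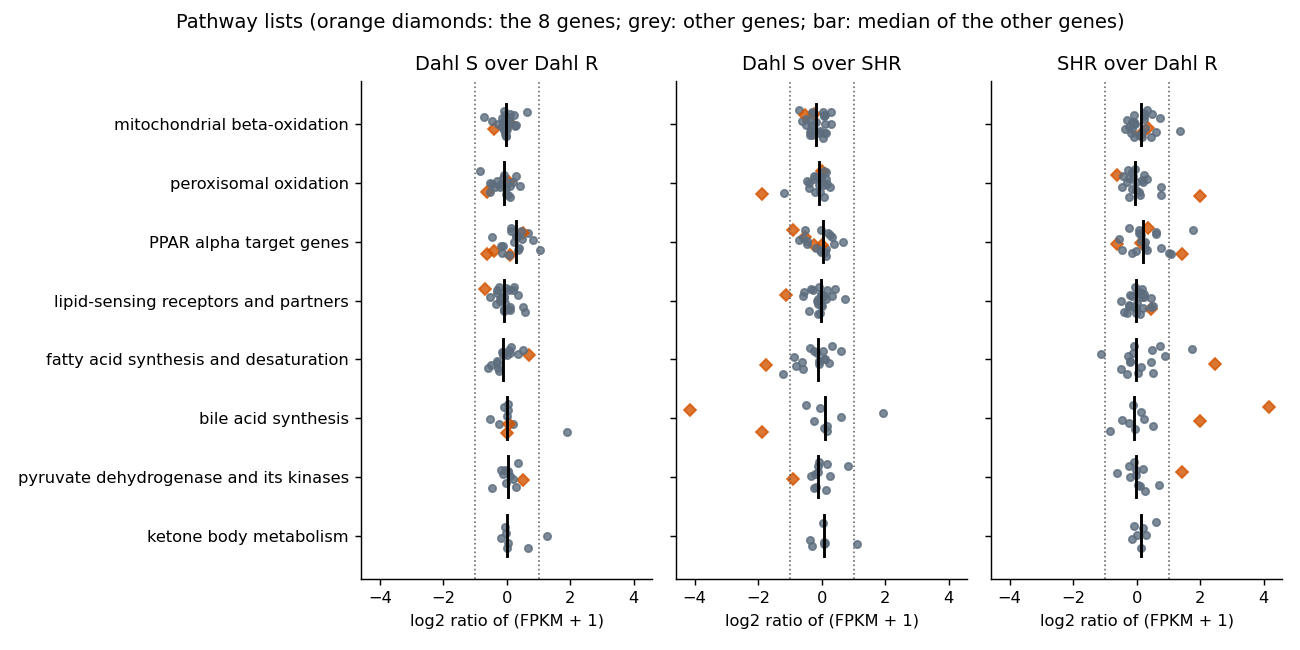
Log2 ratio of FPKM plus 1 (horizontal axis) of every measured gene of the 8 pathway lists in the 3 pairs, with orange diamonds for the chosen genes, grey points for the other genes and a black bar for the median of the other genes. Medians lie between -0.18 and 0.29, and the diamonds beyond the dotted 2-fold lines belong to *Cyp8b1*, *Acox2*, *Scd1*, *Ppara* and *Pdk4*.

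The records with the profile most like each of the 5 genes that were 2-fold apart were sought among 10115 of the measured protein-coding records. These were records spanning at least 300 bases and having a gene symbol rather than a provisional or accession-like name. Likeness was the Euclidean distance of centred log2 values of FPKM plus 1 over the 3 strains. Adding 1 narrows the differences of low records, so a low record can lie near a gene with smaller fold differences. With 3 points a profile is shared by many records by arithmetic alone. Nearest to *Scd1* were the brown fat genes *Cidea* (distance 0.170) and *Ucp1* (0.186), then *Dlk2* (0.285), a low record at 0.820 FPKM in Dahl S, 7.15 FPKM in SHR and 0.329 FPKM in Dahl R. Nearest to *Acox2* were *Cldn6* (0.081), *Lpl* (0.115) and *Nupr1* (0.123). Nearest to *Pdk4* were *Acvrl1* (0.028), *Ly6g6d* (0.072) and *P2rx7* (0.072), and nearest to *Ppara* were *Slc30a2* (0.012), *Dcp1b* (0.065) and *Zmynd12* (0.068). *Cyp8b1* had no close neighbour: the nearest were *Ifit1* (1.15), *Areg* (1.36) and *Dlk2* (1.49), all of them low in both Dahl strains.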

How the data were processed

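Kidney RNA of 3 strains was sequenced in 1 library each. The deposited tables give FPKM with lower and upper limits for each record, which the authors computed. The submitters' processing notes name TopHat 1.3.1 and Cufflinks 1.0.3, and the sources state no genome build, annotation, confidence level or strand setting. File starts were taken as counted from 0 and are printed counted from 1. Relative depth takes the distance to a limit as 2 times the value over the square root of a fragment number.

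From these values log2 ratios of FPKM plus a pseudocount of 1 were computed, and the 17902 records averaging 1 FPKM or more were compared. With 1 library per strain no test is possible, so a log2 ratio of at least 1 in size was the rule, with overlap of the limits beside it. The genes and lists were chosen with earlier results of these data known. List genes were matched on the gene name column, and 8 were matched by UniProt entry names or an older symbol added after the files were seen. Of 150 pathway genes 140 were matched. From each pathway list the text names the genes 2-fold apart with limits apart, otherwise the most abundant; family members and other genes were picked after their values were seen. The ratio code was tested on simulated data. Promoters come from the RefSeq table of GRCr8, which matched all 8 genes. Alternatives were other pseudocounts, minimum means and scalings, limits apart, and summed loci. Python 3.11.15, numpy 2.4.6, pandas 2.3.3 and matplotlib 3.10.9 were used.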

Additional observations from a re-analysis of the deposited data

How the results depend on the processing

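The log2 ratios of the chosen genes were taken again under 8 settings. Having no minimum or a minimum mean of 5 FPKM changes only which records are kept, so it cannot move a ratio. Summing loci cannot move the ratios that reached 2-fold either, since each of those genes is the 1 record at its locus. The settings that could move them were pseudocounts of 0.1 and 5 and 3 other scalings. Under these, all 8 log2 ratios that reached 2-fold kept their sign, and 7 stayed 2-fold in each. The other, *Ppara* in Dahl S over SHR, ranged from -1.29 to -0.74 and missed 2-fold with a pseudocount of 5. *Cyp8b1* moved most, as a low value in both Dahl strains must with the pseudocount: its log2 ratio ranged from -4.79 to -2.89 in Dahl S over SHR and from 2.90 to 4.80 in SHR over Dahl R. *Pdk4* in SHR over Dahl R came down to 1.00 at a pseudocount of 5. Among all genes of the pathway lists, the count 2-fold apart with a pseudocount of 5 was 0 in place of 3 in Dahl S over Dahl R and 5 in place of 8 in Dahl S over SHR, and with a minimum mean of 5 FPKM it was 1 in place of 3 in Dahl S over Dahl R. Other counts stayed within 1.5 times. Scalings shifted the median of all measured records by less than 0.1. No paired analysis was possible because there is 1 library per strain. Library depth and the width of the limits, near 30% of a value, bound what differences could be seen.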

Other observations

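The nearest measured protein-coding records on either side of *Cyp8b1* and *Acox2*, looked up after their values were seen, were not 2-fold apart in any pair. Beside *Cyp8b1* lay *LOC367191*, at 17.3 FPKM in Dahl S, 15.9 FPKM in SHR and 17.9 FPKM in Dahl R, and *Higd1a*, at 35.5 FPKM in Dahl S, 62.3 FPKM in SHR and 51.4 FPKM in Dahl R. Beside *Acox2* lay *Fam107a*, at 13.7 FPKM in Dahl S, 12.1 FPKM in SHR and 10.9 FPKM in Dahl R, and *Kctd6*, at 20.4 FPKM in Dahl S, 14.9 FPKM in SHR and 16.03 FPKM in Dahl R. *Higd1a* was highest in SHR, as *Cyp8b1* was, with a log2 ratio of -0.79 in Dahl S over SHR, and the other 3 were not. The files place *Cyp8b1* on the plus strand and the GRCr8 table on the minus strand, a difference that was not resolved here.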
